A study of Mus musculus with 2 samples.

Results

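Ammonia handling in the liver was examined through 9 genes, enzymes of the urea cycle together with the enzymes and carriers that deliver ammonia to it or take up what it leaves. The members were Cps1, Otc, Ass1, Asl, Nags, Gls2, Glul, Rhbg and Slc1a2, chosen by name from the 30153 genes on a mouse oligonucleotide array, and every probe of each was read, which gave 13 of 39390 probes. The 2 groups were mature hepatocytes (MHs) and Sox9+EpCAM- cells, each measured on 1 single-colour array of the same slide. MHs were prepared from healthy liver by Percoll gradient centrifugation with no sort. Sox9+EpCAM- cells, called biphenotypic hepatocytes because they carry features of hepatocytes and of bile duct cells, were sorted by FACS as GFP+EpCAM- cells from livers of Sox9-EGFP mice injured by a diet with DDC, a compound that causes porphyrin plugs and chronic injury in bile ducts. Per the study's methods both preparations came from Sox9-EGFP mice, whose GFP reports the promoter activity of Sox9, so that the GFP gate selects cells by that reporter and not by lineage. Mouse age, the number of mice pooled per array and the time on the diet before these arrays are not given in the sources used here.

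Hepatocytes around the portal vein turn ammonia into urea. Gls2 releases ammonia from glutamine, Nags makes the activator that Cps1 needs, and Cps1, Otc, Ass1 and Asl then carry the nitrogen through the cycle. Ammonia that escapes is captured around the central vein, where Rhbg lets it cross the membrane, Slc1a2 brings in glutamate and Glul joins the pair into glutamine, and this pericentral programme is known to depend on Wnt signalling.

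The array labelled MH went against its label for sex. Both arrays are labelled male, but Xist read 1940 for MHs against 16.1, not well above background, for Sox9+EpCAM- cells. Ddx3y, Kdm5d, Uty and Eif2s3y, all Y-linked, passed the background criterion with Sox9+EpCAM- RNA and failed it with MH RNA. Sex, diet and isolation method therefore differ together and cannot be told apart, and with 1 array per group no difference below has a replicate check or a test. All 10 hepatocyte markers were well above background on both arrays and 0.22 to 1.02 log2 units lower in Sox9+EpCAM- cells. Markers of other cells also differed. Of the cholangiocyte markers 6 of 8 were higher, with their summed intensity, in multiples of an array's 75th percentile, at 2.37 in MHs and 49.0 in Sox9+EpCAM- cells. Spp1 (258 and 47000) made most of the second sum, and the other 7 markers summed to 2.03 and 6.70. Epcam, the antigen the gate selected against, read 139 in MHs and 2770 in Sox9+EpCAM- cells. Of the fibroblast markers 8 of the 9 with a measurable difference were higher, with sums of 12.2 and 54.2, or 1.30 and 40.7 without Dcn, which made most of the first. Leukocyte markers were lower for 10 of 11, with sums of 43.0 and 16.0, or 26.5 and 3.71 without Csf1r. Endothelial markers were lower for 7 of 7, with sums of 6.98 and 2.15, or 3.50 and 0.886 without Kdr. Their part in the results on the members was not tested. Fewer hepatocytes in the preparation and less RNA per hepatocyte cannot be told apart on these arrays.

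Differences are given on the log2 scale as Sox9+EpCAM- minus MH, after each array was scaled to its 75th percentile. That percentile was 741 for MHs and 1110 for Sox9+EpCAM- cells, so a gene with equal raw intensity on both is lower in Sox9+EpCAM- cells after scaling. The error printed beside a difference is the standard error from the scanner software's own model of spot error, which covers the measurement of a spot and not the spread between mice. All 8 members with a measurable level were lower in Sox9+EpCAM- cells. Their median difference was -1.90 and their range -6.09 to -1.47. All 8 were at least 2-fold lower, as were 17.9% of the 21877 genes with a measurable difference, and 4 of 8 (Otc, Ass1, Rhbg and Slc1a2) were at least 4-fold lower, against 5.96% of those genes. With quantile normalization or scaling to Gapdh Ass1 lost this call, leaving 3, and with scaling to the hepatocyte markers only Rhbg and Slc1a2 were left. The hepatocyte marker scaling also put Asl, Nags and Gls2 short of 2-fold, at -0.82, -0.91 and -0.92. With the reported scaling only Slc1a2, 1 of 8, was at least 10-fold lower, against 1.57%. No member was higher, whereas 15.2% of all genes were at least 2-fold, 5.98% at least 4-fold and 1.66% at least 10-fold higher. The median difference over all genes was -0.12. The remaining member, Glul, gave no level on either array.

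**Figure D1:**
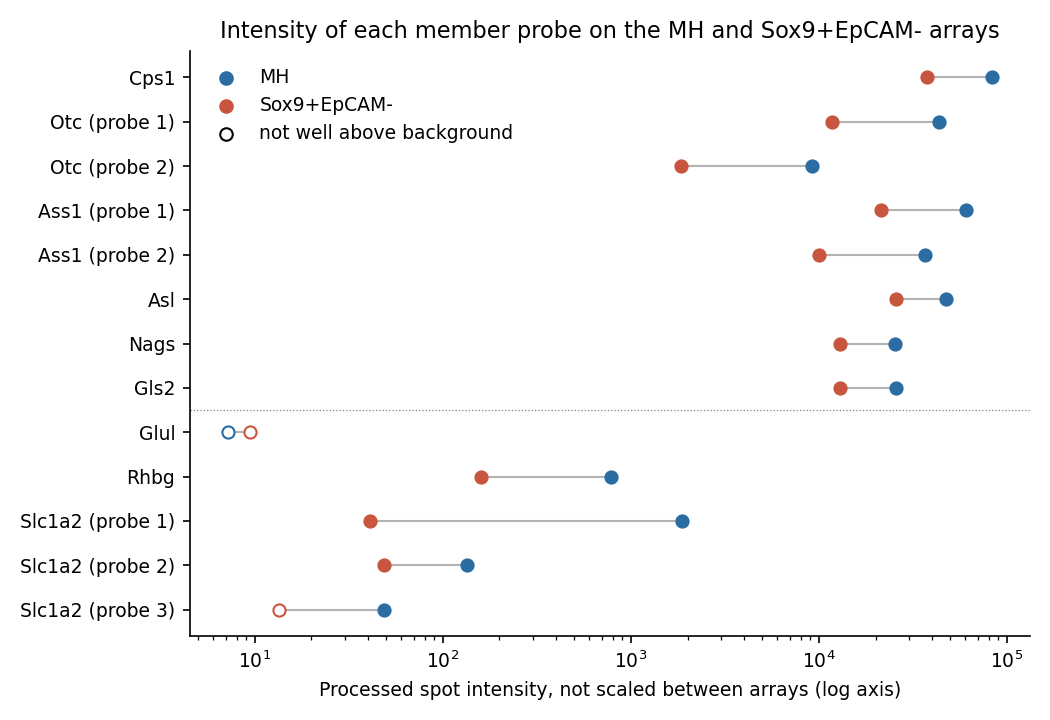
Processed spot intensity of each of the 13 member probes in MHs (blue) and Sox9+EpCAM- cells (red), on a log axis and before scaling between arrays, with periportal members above the dotted line and open points for spots not well above background. Every probe except that of Glul was brighter in MHs, and the widest gap was that of Slc1a2 probe 1, at 1870 and 41.2.

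The entry to the cycle was lower in Sox9+EpCAM- cells. Cps1, the mitochondrial enzyme that fixes ammonia and sets the rate of the cycle, had an intensity of 82800 in MHs and 37500 in Sox9+EpCAM- cells. This was the brightest member probe on both arrays. The difference was -1.73 ± 0.20 (error-model SE), or 3.31-fold lower. The Cps1 probe lies at chr1:67276029-67276088 (mm9, plus strand), and begins at base 4439 of the transcript. Nags, which makes the N-acetylglutamate that switches Cps1 on, read 25300 and 12900. It was 2.94-fold lower (-1.55 ± 0.20), with its probe at chr11:102009515-102009574 on the plus strand. Gls2, the liver glutaminase that supplies ammonia to Cps1 inside the mitochondrion, read 25600 and 12900. The Gls2 difference of -1.57 ± 0.20, 2.97-fold lower, lay within its error of that of Nags, and its probe lies at chr10:127646830-127646889 on the plus strand. Probes of 60 bases from the transcripts of Cps1 and Nags are written out because the letters decide which RNA each value counts. They are given 5′ to 3′ as deposited, in lower case throughout because the whole probe is read.
Cps1: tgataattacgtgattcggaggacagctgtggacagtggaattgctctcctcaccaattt
Nags: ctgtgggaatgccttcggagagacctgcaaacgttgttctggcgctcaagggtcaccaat

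Otc, the X-linked enzyme that joins carbamoyl phosphate to ornithine, had the lowest difference of the urea cycle enzymes. The gap between Otc and Ass1, 0.40, was within 2 times their combined error. Otc was measured by a pair of probes. Its first probe was printed at 10 spots, of which 1 was called an outlier by the scanner software and left out. The 9 kept spots read 40500 to 45300 in MHs, with a geometric mean of 43256, and 11300 to 12600 in Sox9+EpCAM- cells, with a geometric mean of 11661. These spots are repeats of the same RNA and their SD, 0.049 and 0.047 log2 units, is technical. The difference was -2.47 ± 0.20, or 5.56-fold lower, and -1.83, short of 4-fold, with scaling to the hepatocyte markers. A second probe, close to the end of the transcript, read 9150 and 1840 and was 7.45-fold lower. The first probe spans chrX:9853843-9877490 on the plus strand (mm9), 23648 bases of genome for 60 bases of probe, so that it crosses a splice junction of the messenger RNA. The second lies at chrX:9897267-9897326. The first is shown because it carries the repeat spots.
Otc: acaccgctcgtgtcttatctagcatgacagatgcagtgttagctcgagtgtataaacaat

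The cytosolic steps followed. Ass1, which condenses citrulline with aspartate, was measured by a pair of neighbouring probes. The brighter read 60300 in MHs and 21500 in Sox9+EpCAM- cells, 4.20-fold lower (-2.07 ± 0.20), and lies at chr2:31375998-31376057 on the plus strand. The other, at chr2:31376068-31376127, read 36600 and 10000 and was 5.48-fold lower, and it is also assigned to Gm5424, a transcribed copy of Ass1, so its value may count both. Both probes gave a difference past 4-fold, though for the brighter that margin was less than its error, and with the arrays scaled to Gapdh, quantile normalized or scaled to the hepatocyte markers Ass1 was at -1.80, -1.60 and -1.42, short of 4-fold. Asl, which splits argininosuccinate into arginine and fumarate, read 47500 and 25700. It was 2.77-fold lower (-1.47 ± 0.20), and its probe spans chr5:130487964-130488549 on the minus strand, across an intron. It had the smallest difference of the members measured. Its probe is shown for that reason.
Asl: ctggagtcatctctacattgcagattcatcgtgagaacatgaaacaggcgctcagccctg

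The pericentral members with a level were also lower, from dimmer signals. Rhbg, an ammonia channel of the Rh family, read 788 in MHs and 159 in Sox9+EpCAM- cells. It was 7.42-fold lower (-2.89 ± 0.21), with its probe at chr3:88047265-88047324 on the minus strand. Slc1a2, a glutamate carrier also known as GLT-1, read 1870 and 41.2 with its brightest probe. That was 68.0-fold lower (-6.09 ± 0.26), a difference below all but 0.099% of the 19235 genes well above background on both arrays. The other probes of Slc1a2 gave smaller differences from dimmer signals. One, at chr2:102626380-102626439, read 135 and 48.9 and was 4.14-fold lower (-2.05 ± 0.25). The other, at chr2:102622252-102622311, read 48.7 in MHs and 13.4, not well above background, in Sox9+EpCAM- cells, and was at least 3.96-fold lower. The direction was the same with all 3 probes, but the size rested on the brightest. The probes well above background on both arrays differed by 4.04 log2 units for Slc1a2, compared with 0.42 for Otc and 0.38 for Ass1. Among 4001 genes with at least 2 such probes this range had a median of 0.75 and a 90th percentile of 2.32. The brightest Slc1a2 probe, at chr2:102617752-102617811 on the plus strand, is annotated to 1 transcript variant of the gene, beginning at base 1615. The dimmer ones are annotated to other variants, beginning at bases 2881 and 7009 of the one the files name first. The gap of 4.04 is between probes annotated to different transcripts of Slc1a2, and whether any probe is specific to 1 of them was not tested.
Slc1a2: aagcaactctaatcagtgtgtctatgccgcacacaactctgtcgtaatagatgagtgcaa

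Glul, glutamine synthetase, which marks the last rows of hepatocytes around the central vein, read 7.21 in MHs and 9.43 in Sox9+EpCAM- cells. Neither was well above background, and no difference is given. Glul has a single probe here, at chr1:155756765-155756824 on the plus strand, beginning at base 2702 of the transcript. Whether the RNA was scarce or the probe did not report it was not tested.

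**Figure D2:**
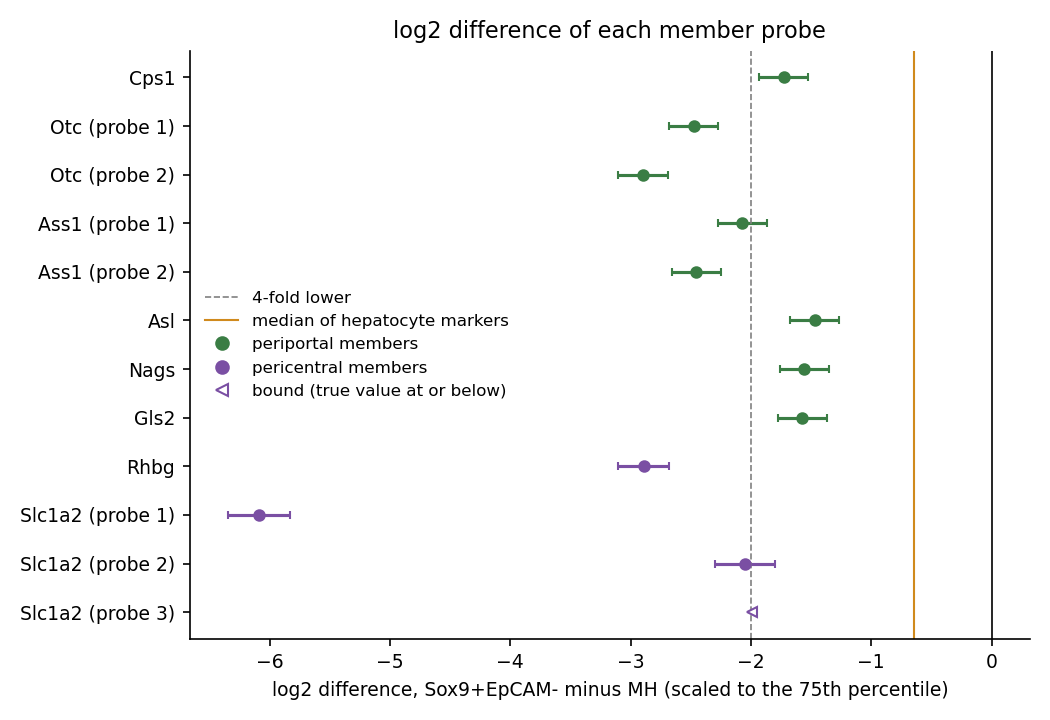
The log2 difference of the 12 member probes with a measurable difference, Sox9+EpCAM- minus MH, with bars for the error-model SE, an open triangle for the bound of Slc1a2 probe 3, a dashed line at 4-fold lower and an orange line at the hepatocyte marker median of -0.65. All 12 probes lie left of that line, and 7 are at least 4-fold lower.

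The order of the members was mostly not resolved. From the lowest, it ran Slc1a2, Rhbg, Otc, Ass1, Cps1, Gls2, Nags and Asl. Of the 7 neighbouring pairs, only Slc1a2 and Rhbg were further apart (3.20) than 2 times their combined error. The other 6 gaps, from 0.02 between Gls2 and Nags to 0.42 between Rhbg and Otc, were within it. The place of Slc1a2 rested on its brightest probe. When a gene's probes were summarised by their median, Slc1a2 was at -2.05, above Rhbg (-2.89), Otc (-2.69) and Ass1 (-2.26). The median difference of the 6 periportal members was -1.65, with a range of -2.47 to -1.47. The measured pericentral members, Rhbg and Slc1a2, had a median of -4.49, so the periportal median was 2.84 log2 units higher. That contrast depended on the Slc1a2 probe, and it was 0.82 when a gene's probes were summarised by their median and 1.86 with another background correction. Both values keep the pericentral median lower, though with the median of a gene's probes Slc1a2 itself lay above Otc and Ass1.

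**Figure D3:**
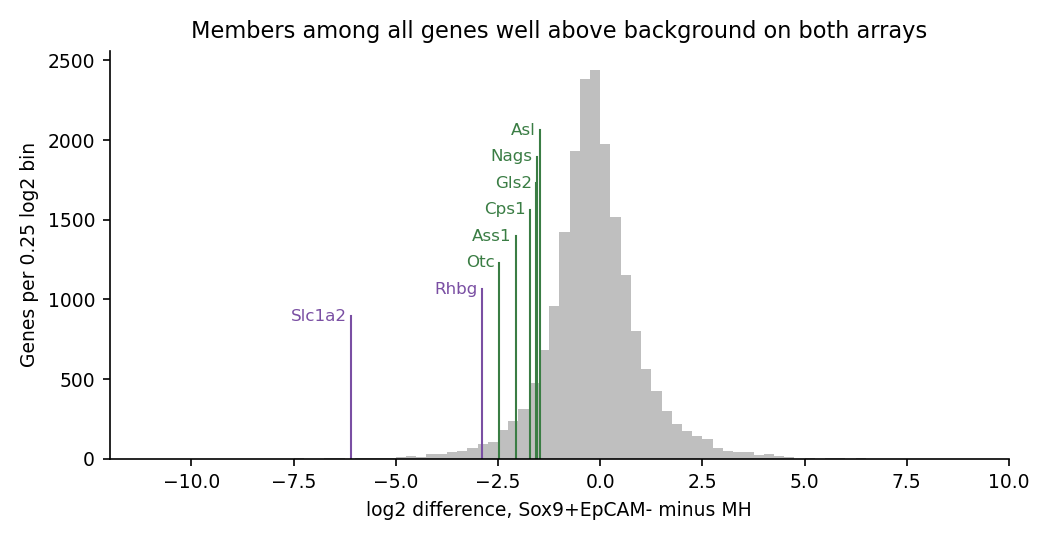
Histogram of the log2 difference, Sox9+EpCAM- minus MH, of the 19235 genes well above background on both arrays in bins of 0.25, with lines at the 8 measured members (green for periportal, purple for pericentral, line heights only to separate the names). Asl, the highest member, lies at the 9.23 percentile mark and Slc1a2 at 0.099.

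The members were compared with general hepatocyte markers such as Alb. All 8 measured members lay below each of the 10 hepatocyte markers, the highest member being Asl at -1.47 and the lowest marker at -1.02, a level that 17.4% of all genes with a difference also fell below. The margin was smallest with the probe of largest difference for each gene (-1.47 and -1.34), and a scaling that moves all genes together leaves it as it is. The median of the members, -1.90, compares with -0.65 for the markers. By the rule of 2 combined errors, 5 of the members were apart from the lowest marker, Serpina1a, by its brightest probe, and Asl, Nags and Gls2 were not. That error leaves out differences between probes of 1 gene, which had a median of 0.75, more than the gap of 0.70 for Cps1. The other Serpina1a probe was at -1.34, so whether Cps1 is apart depends on the probe. No test of the difference between members and markers was possible.

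Genes that feed nitrogen into the cycle were mixed. Of 14 such enzymes 13 had a measurable difference, of which 11 were lower and 2 higher, with a median of -1.17. The lowest was Oat, which links ornithine to proline and glutamate and is itself pericentral, at 13200 in MHs and 1120 in Sox9+EpCAM- cells, 17.7-fold lower. Car5a, the mitochondrial carbonic anhydrase that gives Cps1 its bicarbonate, read 3800 and 403 and was 14.1-fold lower. At the other end Gpt2, an alanine transaminase, differed by 0.03 and Sirt5, a deacylase that acts on Cps1, by 0.33. At least 4-fold lower were 4 of the 13, against the 5.96% of all genes given above. With the arrays scaled to Gapdh there were 3, and with scaling to the hepatocyte markers 2, with a list median of -0.52. Over all genes 1006 and 689 were at least 4-fold lower under those scalings, against 1304 as reported.

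Carriers of the cycle's substrates lay near the background of all genes. Of 20 listed, 16 had a measurable difference, 9 lower and 7 higher, where 55.3% of all genes were lower, with a median of -0.32 that became 0.07 with quantile normalization and 0.33 when the arrays were scaled to the hepatocyte markers. None was at least 4-fold lower and 1 at least 4-fold higher, against 5.96% and 5.98% of all genes. Slc38a3, a glutamine carrier of hepatocytes, read 38300 in MHs and 19200 in Sox9+EpCAM- cells (-1.58), and Slc25a12, a mitochondrial aspartate-glutamate carrier, differed by -1.55. Slc7a1, a carrier of arginine and other cationic amino acids, read 31.3 and 648 and was 13.8-fold higher. Slc1a1, a glutamate carrier of the same family as Slc1a2, was 0.99 log2 units higher.

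Other zonated genes lay on both sides of 0. The 15 periportal markers had a median of -0.70, with 11 lower and 4 higher, and 2 were at least 4-fold lower, against 5.96% of all genes. With quantile normalization or scaling to Gapdh 1 was lower and 1 higher by that measure. When the arrays were scaled to the hepatocyte markers 1 was lower and 3 higher, with a median of -0.05. Over all genes that scaling gave 689 lower and 2360 higher by 4-fold, against 1304 and 1309 as reported. With the median of a gene's probes or the probe with the largest difference 3 markers were lower, with medians of -0.87 and -0.97. The second probe of Sds read 6910 in MHs and 503 in Sox9+EpCAM- cells (-4.36), while its brightest gave -0.81. The brightest probe of Pigr (-0.67) shares 20 bases with probes of other genes, and its other probe gave -1.45. The 2 lower calls as reported were Etnppl (named Agxt2l1 on the array), a phospholyase, at 6630 in MHs and 744 in Sox9+EpCAM- cells, and Hsd17b6, at 89000 and 28600. Apoa4 and Cdh1, the latter the E-cadherin of periportal hepatocytes and of bile ducts, were the highest, at 1.64 and 1.81. The pericentral markers, with 15 on the array, had a median of -0.81 and went from -8.49 to 3.30, 6 being at least 4-fold lower and 3 at least 4-fold higher, against 5.96% and 5.98% of all genes. The 3 higher calls became 0 with normexp background correction and 1 when only genes above background on both arrays were counted.

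The pericentral markers held genes far from 0 in either direction. Cyp1a2, an enzyme of xenobiotic metabolism, read 18500 in MHs and 84.1 in Sox9+EpCAM- cells, 330-fold lower. Rgn, which binds calcium and takes part in the ascorbate pathway, read 35100 and 168, 313-fold lower. Cyp7a1, the rate-limiting enzyme of bile acid synthesis, read 4910 and 20.4, not well above background, and was at least 361-fold lower. Those 3 stood below Slc1a2. Lgr5, a receptor of R-spondins that amplifies Wnt signalling, was at least 7.36-fold lower, from 90.4 to 3.98. In contrast Axin2, a feedback inhibitor of Wnt signalling, was at least 9.82-fold higher. Znrf3 and Rnf43, ubiquitin ligases that remove Wnt receptors, were 5.94-fold and at least 5.55-fold higher, and Nkd1, another feedback inhibitor, was 1.85 log2 units higher. Cyp2e1, a cytochrome P450 that oxidises ethanol, and Lect2, a secreted protein, were also among the lower calls, at -5.47 and -5.06, and Gulo was at -1.90. Notum, another Wnt feedback inhibitor, differed by -0.05 and Aldh1a1, a retinal dehydrogenase, by 0.60. No sublist was compared with Rhbg and Slc1a2.

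Known regulators of these genes went both ways. Of 10, 5 were lower and 5 higher, with a median of -0.10 that was above 0 when the arrays were scaled to Gapdh (0.17) or the hepatocyte markers (0.55) or quantile normalized (0.24), and further below 0 with the median of all probes (-0.22), the deposited ratios (-0.27) or the probe with the largest difference (-0.41). The lowest were Nr3c1, the glucocorticoid receptor, at -1.37 and Cebpa, a liver transcription factor that acts on urea cycle promoters, at -1.29. The highest was Gcgr, the glucagon receptor, at 2690 in MHs and 12800 in Sox9+EpCAM- cells (1.67). Apc, a brake on Wnt signalling, was next by its brightest probe at 0.60, but its other probe, at 639 and 403, gave -1.25. Tcf7l2, a partner of beta-catenin, was at 0.04 and -0.47 with its probes above background, and Ppargc1a, a coactivator, at -0.61 with its brightest probe and at least 1.31-fold higher with the other. The direction of these 3 of the 10 therefore depends on the probe. At least 2-fold lower were 2 of the 10 and higher 1, against 17.9% and 15.2% of all genes. None was 4-fold different, against 5.96% lower and 5.98% higher among all genes. When the arrays were scaled to the hepatocyte markers 1 was at least 4-fold higher, where 2360 of all genes were, against 1309 as reported.

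**Figure D4:**
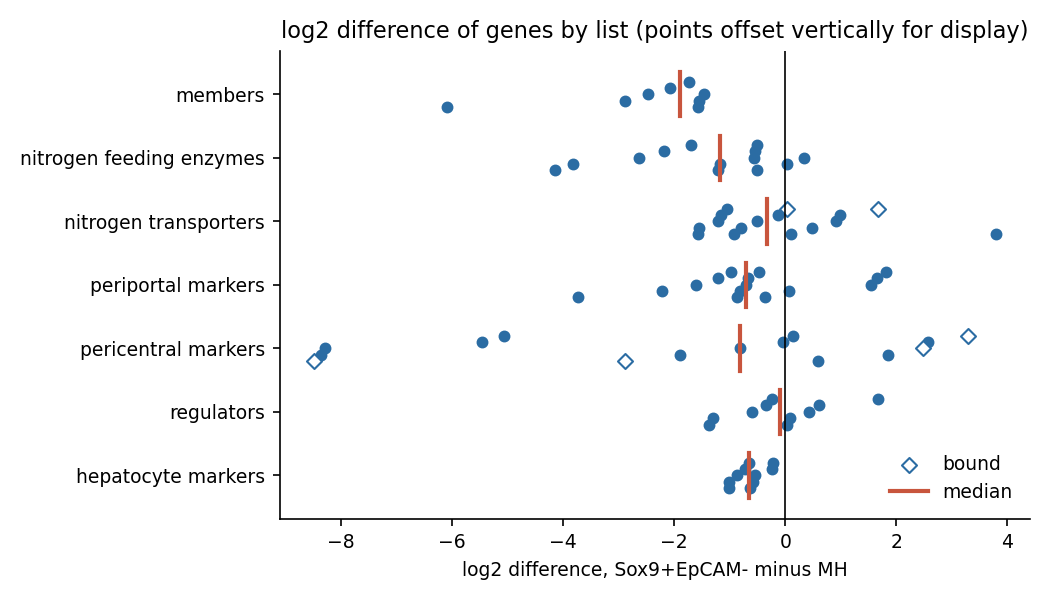
The log2 difference of each gene of the members, the related lists and the hepatocyte markers, Sox9+EpCAM- minus MH, with open diamonds for genes well above background on only 1 array (bounds) and red bars for list medians. The members all lie between -6.09 and -1.47, while pericentral markers go from -8.49 to 3.30.

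Promoter sequence was read for the members held in the RefSeq table (GRCm38.p6), which were Glul, Ass1, Slc1a2, Nags and Otc, over 250 bases before and 50 after the start. Cps1, Asl, Gls2 and Rhbg had no entry. The motifs searched on both strands were CTTTGAT (TCF/LEF), TTGCNNNAA and TTNNGCAA (C/EBP, forms that can overlap), and CAAAGTCCA (HNF4). The CCAAT box was searched in the same way. The TATA box, searched as TATAAA, had no match in these members, nor had TTGCNNNAA or the HNF4 motif, whereas 13.6%, 9.56% and 0.475% of promoters held them. CTTTGAT was found in Slc1a2, 207 bases before the start, and in Nags, 204 bases before it, and in 3.73% of 32851 promoters. TTNNGCAA was found in Slc1a2, 158 bases before the start, and in 10.8% of promoters. CCAAT was found in Glul, and in 37.4% of promoters. The 250 bases before the start of Slc1a2 and Nags are shown because they share a motif while their differences, -6.09 and -1.55, were far apart. Capitals mark the matches, with CTTTGAT read on the reverse strand.
Slc1a2 promoter: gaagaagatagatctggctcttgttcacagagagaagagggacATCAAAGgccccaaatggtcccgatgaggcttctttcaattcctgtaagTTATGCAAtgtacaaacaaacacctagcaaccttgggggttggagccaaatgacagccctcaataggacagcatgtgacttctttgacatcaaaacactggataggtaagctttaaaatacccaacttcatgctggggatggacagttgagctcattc
Nags promoter: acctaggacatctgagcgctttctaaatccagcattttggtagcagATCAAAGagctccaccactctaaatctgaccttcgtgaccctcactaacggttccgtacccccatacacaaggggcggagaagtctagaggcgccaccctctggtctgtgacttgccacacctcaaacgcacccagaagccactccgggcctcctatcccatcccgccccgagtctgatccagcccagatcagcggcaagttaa

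**Figure D5:**
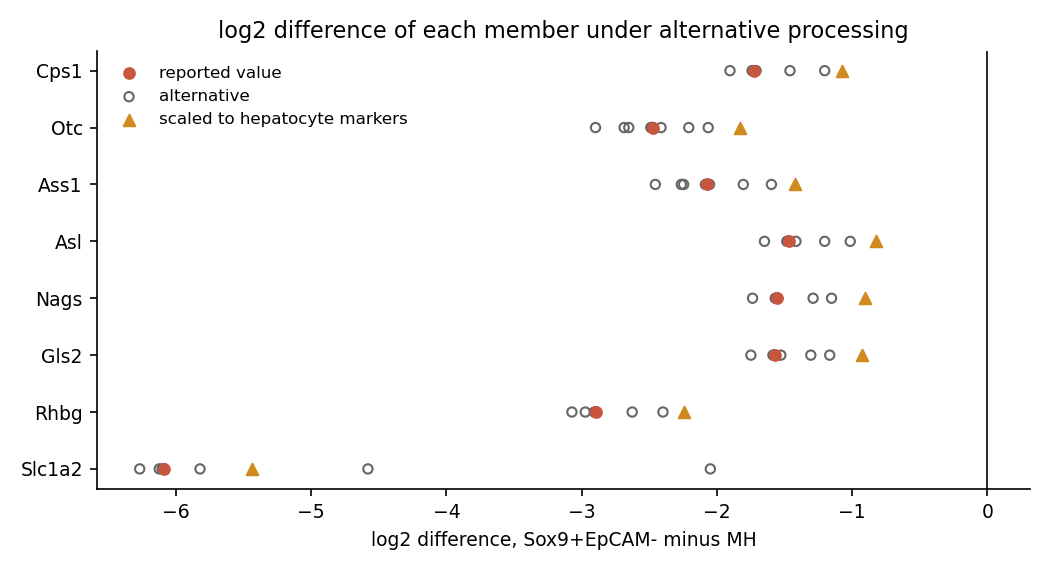
The log2 difference of each of the 8 measured members as reported (red), under each alternative processing (open circles) and when the arrays were scaled to the hepatocyte markers (orange triangles). All values lie below 0, and Slc1a2 has the widest range, -6.27 to -2.05.

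Every member stayed lower under each of the 11 alternatives that gave it a value. Scaling to the hepatocyte markers gave the values nearest to 0 for all members but Slc1a2, for example -0.82 for Asl, -1.08 for Cps1 and -2.24 for Rhbg.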

How the data were processed

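RNA of 1 MH and 1 Sox9+EpCAM- preparation was labelled with Cy3, each on 1 array. The authors deposited the output of Feature Extraction 10.7.3.1 per array, with spot intensity (background-subtracted processed signal, its error, mean signal and local background) and spot flags. The authors also deposited a table of ratios, found here to be the processed intensity over each array's median. Probe positions are those of the files (mm9); no mm9 annotation was used here.

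From 43020 non-control spots per array, of which 27523 (MH) and 32158 were well above background, log2 processed signal minus the array's 75th percentile was taken, outlier-flagged spots dropped, spots of a probe averaged and the brightest probe taken for each gene. A probe well above background on 1 array gives a bound for which the dim side takes that array's weakest signal that passed (27.8 in MHs, 18.4 in Sox9+EpCAM- cells) or the probe's own where higher; on neither array it gives no difference. No spot was saturated. A gene was called at 4-fold. The number of arrays limits the precision, and no test was possible. Of 137 list entries 133 matched a gene name, 3 matched an older name and 1 (Cyp2a5) did not. No member probe shares 20 bases with a probe of another gene, as 7.16% of probes do. The named genes are all members, the 2 lowest and 2 highest of each related list measured on both arrays, list genes with a bound of at least 4-fold, and the sex-linked genes. Epcam, Spp1, Alb, Serpina1a, Dcn, Csf1r, Kdr, Sds, Pigr, Cyp2e1, Lect2, Gulo, Notum, Aldh1a1, Tcf7l2 and Ppargc1a were added with their values known. Some genes are not reported here. The members and lists were chosen with earlier results of these data known. The alternatives were another background correction (normexp, offset 50), 4 other scalings, other probe rules, outlier spots kept, no bound, genes above background on both arrays, the deposited ratios, and 2-fold and 10-fold thresholds. The scripts, tested on simulated data, used Python 3.11.15, pandas 2.3.3, numpy 2.4.6, matplotlib 3.10.9, R 4.3.3 and limma 3.58.1.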

Additional observations from a re-analysis of the deposited data

How the results depend on the processing

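No paired analysis was possible because there was 1 array a group, and for the same reason no array could be left out and the slide, which holds both arrays, could not be a block. Of 88 member values under the alternatives all were below 0 and 78 moved by no more than 1.5-fold. The other 10 were all 8 members under scaling to the median of the hepatocyte markers, an alternative chosen after seeing the data, and Slc1a2 with normexp (-4.58) and with the median of all probes (-2.05). Under that scaling the median of the members was -1.25 (reported -1.90) and 2 members, not 4, were at least 4-fold lower. Asl, Nags and Gls2 then fell short of 2-fold. With the reported scaling 8 members were at least 2-fold lower and 1 at least 10-fold. With quantile normalization and with Gapdh scaling Ass1 lost its call, leaving 3. The median of the periportal members minus that of the pericentral members, 2.84, was 1.86 with normexp, 0.82 with the median of all probes and 1.24 with plain differences, which add Glul. Over all genes, 1304 were at least 4-fold lower and 1309 higher. These counts were 660 and 612 with normexp, 3918 and 3319 at 2-fold, and 344 and 363 at 10-fold. They were 689 and 2360 under the hepatocyte marker scaling, and 914 and 758 among genes above background on both arrays. Scaling to Gapdh gave 1006 lower and 1650 higher. The median over genes above background on both arrays, -0.19, was -0.37 with the deposited ratios, 0.07 with Gapdh and 0.45 with the hepatocyte markers. Except where the alternative changes which genes or values enter, the cause was not tested. Dim probes, among them Glul and the weakest of Slc1a2, limit what can be measured.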

Other observations

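Among further carriers related to the members, named after their values were seen, Rhcg, an ammonia channel of the same family as Rhbg, read 23.8 in MHs, not well above background, and 133 in Sox9+EpCAM- cells, at least 3.19-fold higher, while Rhag, the form of red blood cells, read 7.03 and 4.68 and was not well above background on either array. Slc1a3, a glutamate carrier, was also not well above background on either array, at 8.23 and 5.67. The neutral amino acid carrier Slc1a4 read 105000 and 110000 (-0.52), with a probe that shares 20 bases with probes of other genes, so the signal may not be its own, and Slc1a5, a glutamine carrier, read 143 and 298 (0.48). Slc25a15, which returns ornithine to the mitochondrion for Otc, read 10200 and 6860 and was 2.23-fold lower, and Slc25a13, the hepatic form of the aspartate-glutamate carrier, read 12900 and 10200 (-0.92).

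Among enzymes around the cycle, also named after their values were seen, Got1, the cytosolic transaminase that makes aspartate for Ass1, read 7410 and 1790 and was 6.20-fold lower, while its mitochondrial partner Got2 read 12100 and 12700 (-0.51). Prodh and Aldh4a1, consecutive enzymes of proline breakdown, were 4.53-fold and 3.24-fold lower. Glud1, which frees ammonia from glutamate, read 19800 and 20000 (-0.57) with its brightest probe and 11700 and 8650 (-1.02) with the other.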
